A study of Mus musculus with 3 samples.

Results

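The 44 genes described here encode nuclear receptors, transcription factors that carry a zinc-finger DNA-binding domain and, in most cases, a pocket for a small lipophilic ligand. They were taken as a named gene family by a rule that uses no measured value, although the family was proposed with earlier results of these data known, and all 44 were found among the 21938 protein-coding genes of the mouse annotation. Chromatin accessibility was measured by DNase-seq, in which DNase I cuts nuclear DNA where it is not covered, in primary natural killer cells of male B6CASTF1/J mice aged 2 months. These mice are first-generation hybrids of a C57BL/6 and a CAST parent. The labels give 3 biological replicates of 1 group, with no treatment and no other cell type, so no groups were compared. The libraries share a donor label but not a biosample label, separate animals are not stated, and the spread between libraries may therefore be technical. The labels name no sort or gate.

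Nuclear receptors act as ligand-dependent switches: without ligand or with a repressive ligand many of them hold corepressors on DNA, and an activating ligand exchanges these for coactivators. Most non-steroid receptors bind the hexamer AGGTCA alone or as a repeat, often as a partner of a retinoid X receptor (RXR), whereas the glucocorticoid receptor and its relatives bind an inverted repeat as homodimers. In lymphocytes the glucocorticoid receptor is known for restraining inflammatory genes, the NR4A receptors are immediate early genes that antigen and cytokine receptors induce, and the REV-ERB and ROR receptors oppose each other in the circadian clock.

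A promoter was taken as every annotated start site of a gene with 500 bp on each side and counted as open if any peak shared at least 1 bp with it. Since the scale of the deposited peak signal is not stated, each peak was ranked within its library, and a promoter is given as the percentile of its strongest peak among all peaks of that library. The strongest peak of a gene can differ between libraries. The libraries held 40484, 84564 and 81854 peaks in replicates 1, 2 and 3, and a fall in the number of cells with an open site cannot be told apart from a fall in cutting per cell. Markers of other cells were present. Of 8 natural killer markers 6 had an open promoter in all 3 libraries, as did 7 of 8 B cell markers (among them Pax5, Ebf1 and Cd79a), 2 of 8 T cell markers, 2 of 8 monocyte and macrophage markers and 0 of 8 neutrophil markers. Over all protein-coding genes 52.5% were open in all 3. The T cell markers Cd28 and Cd3d and the monocyte and macrophage markers Cd68 and Cebpa were open in all 3 libraries. The markers Cd4, Cd8a, Csf1r, Adgre1 and C1qa were open in no library. By library, 2, 6 and 5 of the T cell markers and 3, 4 and 4 of the monocyte and macrophage markers were open in replicates 1, 2 and 3. The summed promoter signal of the B cell list was 0.446, 1.80 and 0.503 times that of the natural killer list in replicates 1, 2 and 3. For T cell markers the summed signal was 5.97, 10 and 12 and for monocyte and macrophage markers 3.68, 9.5 and 10.3, against 16.1, 23.4 and 47 for natural killer markers, and for neutrophil markers it was 0. The part that B cells, or any other cells, had in the values below was not tested.

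Of the 44 nuclear receptor genes, 25 (56.8%) had an open promoter in all 3 replicates, against 52.5% of all protein-coding genes. Another 14 (31.8%) were open in no replicate, against 38.3% of all protein-coding genes. Library by library 26, 27 and 29 members were open in replicates 1, 2 and 3, where 52.8%, 60.1% and 59.3% of all protein-coding genes were open. The family as a whole was therefore near the background. All 3 NR4A genes, 7 of 9 clock and lipid sensors, and 5 of 6 retinoid, thyroid and vitamin D receptors were open in all 3 replicates. The count was 2 of 3 for the RXR genes, 3 of 5 for the steroid receptors, 4 of 10 for the orphan receptors and 1 of 3 for the estrogen-related receptors. None of the 5 xenobiotic and bile acid sensors was open in any replicate.

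**Figure D1:**
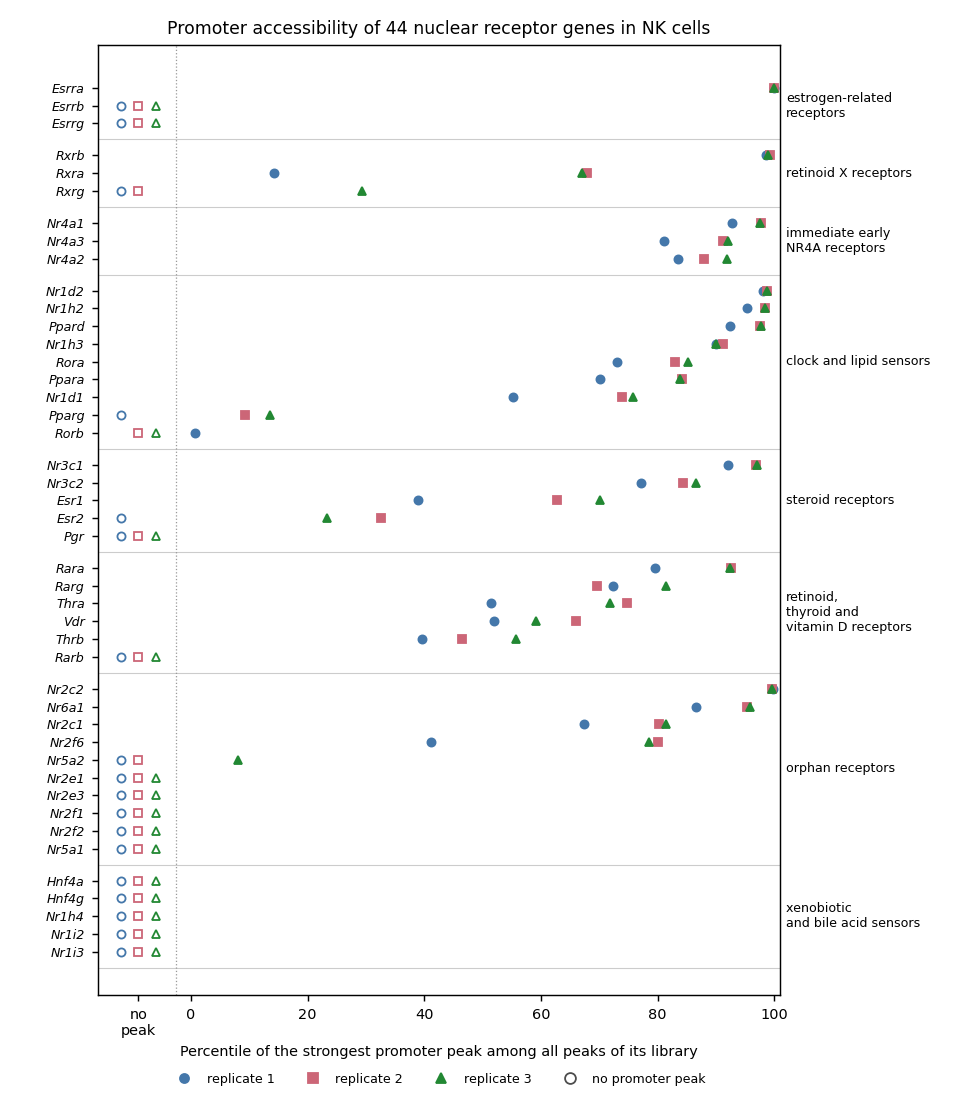
Percentile of the strongest promoter peak among all peaks of its library (x axis, 0 to 100) for each of 44 nuclear receptor genes (y axis), grouped by class, with a filled marker for each of 3 replicates and an open marker where no peak overlapped the promoter. Esrra, Rxrb, Nr2c2 and Nr1d2 lie at the right edge in all 3 replicates, and the 5 xenobiotic and bile acid sensors hold open markers only.

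Among the 25 open members the mean percentile over replicates had a median of 87.8, against 89.4 for the 11507 protein-coding genes open in all 3. A mean percentile of 95 or more was reached by 8 of 25 members (32.0%), against 26.7% of open protein-coding genes. In order these were Esrra, Nr2c2, Rxrb, Nr1d2, Nr1h2, Nr4a1, Ppard and Nr3c1. With 250 bp on each side Nr3c1 fell out of this group, at a mean percentile of 85.8. Without replicate 2 or without replicate 3 it lay at 94.5. In the stricter peak list Nr4a1 (94.4), Ppard (94.2) and Nr3c1 (93.4) were under 95. With the stronger 50% of peaks, ranked among fewer peaks, Nr1h2 (94.9), Nr4a1 (92.1), Ppard (91.8) and Nr3c1 (90.7) were.

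Esrra encodes the estrogen-related receptor ERR alpha, an orphan receptor known for driving genes of mitochondrial respiration, and it had the strongest promoter of the family. Its strongest peak had a signal of 15, 41.3 and 42.8 in replicates 1, 2 and 3, which were the percentiles 99.92, 99.98 and 99.98 of those libraries (mean 99.96 ± 0.0363, SD, n = 3). Its rank was thus near the very top of every library. Among all open promoters of protein-coding genes it lay at the percentile 99.97. Esrra (chr19:6910977-6921813, minus strand, mm10) had no distal open region within its body and 10 kb on each side. Its relatives Esrrb, a factor of pluripotent cells, and Esrrg, known from oxidative tissues, had no promoter peak in any replicate.

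Nr2c2 encodes the orphan receptor TR4, which binds direct repeats of AGGTCA. Its promoter had a signal of 12.6, 25.7 and 26.8 (percentiles 99.73, 99.64 and 99.62), the second highest of the family in every replicate. The strong peak sat at the start site 1.04 kb inside the first annotated one, and the first was weaker, at percentiles 65.7, 82.7 and 78.7. Rxrb encodes RXR beta, one of the shared partners of the non-steroid receptors, and was the next, with a signal of 9.61, 21.8 and 21.7 (percentiles 98.6, 99.20 and 99). The promoter peak of Rxrb also overlapped the promoter of Slc39a7, a zinc transporter gene, and of Gm20427, so the signal cannot be assigned to Rxrb alone.

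The 3 strongest promoters of the family are printed because they show what its most open DNA looks like. Each is the whole promoter peak of replicate 3 as the mm10 reference (the C57BL/6J sequence, which need not match the CAST allele) has it, 5′ to 3′ on the strand of the gene. Capitals mark bases inside a footprint, a short stretch of protected DNA called by the authors, in at least 2 replicates.
Esrra promoter, chr19:6921821-6922060, minus strand: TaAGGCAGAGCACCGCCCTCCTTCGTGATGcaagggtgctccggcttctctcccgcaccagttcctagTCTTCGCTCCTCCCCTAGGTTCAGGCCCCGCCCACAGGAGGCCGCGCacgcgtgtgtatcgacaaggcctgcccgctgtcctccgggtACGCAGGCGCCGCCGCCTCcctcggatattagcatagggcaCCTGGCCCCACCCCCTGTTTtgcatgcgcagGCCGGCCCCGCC
Nr2c2 promoter, chr6:92092161-92092380, plus strand: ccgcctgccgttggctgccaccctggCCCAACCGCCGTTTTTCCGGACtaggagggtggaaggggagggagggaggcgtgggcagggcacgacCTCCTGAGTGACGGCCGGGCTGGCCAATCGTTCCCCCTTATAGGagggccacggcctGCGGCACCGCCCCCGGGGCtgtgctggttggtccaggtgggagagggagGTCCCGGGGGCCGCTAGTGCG
Rxrb promoter, chr17:34031581-34031820, plus strand: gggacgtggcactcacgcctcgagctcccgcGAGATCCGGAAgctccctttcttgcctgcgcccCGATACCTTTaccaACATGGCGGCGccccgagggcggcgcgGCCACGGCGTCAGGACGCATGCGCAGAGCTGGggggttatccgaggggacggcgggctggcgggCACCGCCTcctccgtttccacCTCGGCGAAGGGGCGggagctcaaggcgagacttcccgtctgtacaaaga
Their GC content was 67.9%, 71.8% and 69.2%. Footprints covered 127 of 240 bases at Esrra, 106 of 220 at Nr2c2 and 87 of 240 at Rxrb. In Esrra 2 GC boxes (GGGCGG, read on both strands, the motif of SP and KLF factors) lay wholly in footprints. The Nr2c2 peak held 1 GC box, 1 CCAAT box (CCAAT, the motif of NF-Y) and 1 copy of TGACG, the core of the cAMP response element (CRE) bound by CREB and ATF factors, all wholly in footprints. The Rxrb peak held a copy of the ETS motif CCGGAAG with 6 of 7 letters in a footprint, and TGACG read on the opposite strand wholly in a footprint. Of its 2 GC boxes 1 had 5 of 6 letters in a footprint and 1 had none.

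The other RXR genes were far lower. Rxra, RXR alpha, had a signal of 0.531, 1.51 and 1.59, at percentiles 14.3, 67.9 and 67.1 (mean 49.8 ± 30.7, SD, n = 3). Replicate 1 stood apart, and the higher values of replicates 2 and 3 came from a non-coding start site 63.8 kb inside the gene that was not open in replicate 1. At the first annotated start site Rxra lay at percentiles 14.3, 44.1 and 37.8. Rxrg, RXR gamma, was open in replicate 3 alone, at the percentile 29.3. The order was thus Rxrb, Rxra and Rxrg in each replicate.

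All 3 immediate early NR4A receptors, which act without a known classical ligand, were open in all 3 replicates. Nr4a1 (NUR77) had a signal of 5.76, 16.1 and 16.3 (percentiles 92.7, 97.8 and 97.6), Nr4a3 (NOR1) 2.97, 6.56 and 7.79 (percentiles 81.1, 91.2 and 92.1), and Nr4a2 (NURR1) 3.37, 4.68 and 7.66 (percentiles 83.5, 87.9 and 91.9). Nr4a1 was the highest of the 3 in every replicate, whereas Nr4a2 and Nr4a3 changed places between replicate 1 and the other replicates. Nr4a1 is annotated with 3 separate groups of start sites: the first was open at percentiles 67.8, 90.5 and 87.3, the second, 12.6 kb further in, was the strongest, and the last was closed. Nr4a2 was likewise strongest at a start site 8.96 kb inside the first.

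The NR4A genes were also dense in distal open regions, which are merged peaks found in at least 2 replicates that overlap no promoter of a protein-coding gene. Nr4a1 (chr15:101254269-101274795, plus strand) had 6 of them and Nr4a3 (chr4:48045153-48086447, plus strand) had 9, counted in the gene body and 10 kb beyond each end. Per 100 kb these were 14.8 and 14.7, with Nr4a2 at 8.07, against a median of 2.22 and a 90th percentile of 9.46 over all protein-coding genes. The strongest distal region of Nr4a3 lay 2.2 kb upstream, at percentiles 97.7, 97.6 and 98.4, and a neighbour 1.7 kb upstream lay at 90.2, 97.7 and 97.1. In every replicate the region 2.2 kb upstream ranked above the Nr4a3 promoter itself. For Nr4a1 a region of 500 bp lay 7.7 kb upstream at percentiles 94, 97.3 and 97.1, and an intronic region 4.4 kb inside lay at 80.6, 91.3 and 92.2. The upstream region and the Nr4a1 promoter differed by less than the spread between replicates (means 96.2 and 96).

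The Nr4a1 promoter peak is printed because the CRE core is an element through which cAMP signals are known to induce NR4A genes.
Nr4a1 promoter, chr15:101266721-101266900, plus strand: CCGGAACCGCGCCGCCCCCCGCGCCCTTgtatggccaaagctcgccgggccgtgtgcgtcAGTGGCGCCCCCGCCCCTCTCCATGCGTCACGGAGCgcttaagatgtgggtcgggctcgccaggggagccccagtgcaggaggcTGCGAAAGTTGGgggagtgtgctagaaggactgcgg
The peak middle lay 35 bp upstream of the start site, and 76 of 180 bases were in footprints. TGACG, on the opposite strand as CGTCA, stood at positions 57 to 61 with 1 base in a footprint and at positions 86 to 90 wholly in a footprint, and 2 GC boxes were wholly in footprints. All 3 NR4A promoters had TGACG in a footprint, and Nr4a2 had the full palindrome TGACGTCA, which contains that core.

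The clock and lipid sensors formed the largest class with mostly open promoters. Nr1d2 encodes REV-ERB beta, a heme-binding repressor of the clock, and had a signal of 9.05, 19.4 and 20.7 (percentiles 98.1, 98.7 and 98.8). Nr1d1 encodes its paralog REV-ERB alpha and had a promoter signal of only 1.22, 1.97 and 2.34 (percentiles 55.2, 73.9 and 75.8). The paralogs did not overlap in any replicate. In replicate 3 the middle of the Nr1d2 peak lay 430 bp inside the nearest start site, within the 500 bp counted as promoter. With 250 bp on each side the mean percentiles were 96.7 for Nr1d2 and 68.3 for Nr1d1. Nr1d1 (chr11:98767932-98775333, minus strand) also had a strong intronic region 1.3 kb inside, with a signal of 6.78, 14.3 and 14.4 (percentiles 95, 97.1 and 96.8). That region lay beyond the 500 bp counted as promoter and ranked above the Nr1d1 promoter in every replicate. Thra, the neighbour on the opposite strand, covers it with its flank of 10 kb, so it is counted for both genes.

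The Nr1d1 intronic peak and the Nr1d2 promoter peak are printed side by side, since E-boxes (CACGTG, bound by CLOCK and BMAL1 and also by MYC) and D-boxes (TTANGTAA, bound by DBP and its antagonist NFIL3) are the elements through which the clock is known to drive both genes.
Nr1d1 intron, chr11:98774001-98774200, minus strand: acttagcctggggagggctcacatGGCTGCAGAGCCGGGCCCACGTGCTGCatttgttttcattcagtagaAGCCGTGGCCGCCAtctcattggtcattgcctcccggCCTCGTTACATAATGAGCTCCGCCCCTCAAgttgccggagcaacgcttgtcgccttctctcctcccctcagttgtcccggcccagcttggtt
Nr1d2 promoter, chr14:18238441-18238720, minus strand: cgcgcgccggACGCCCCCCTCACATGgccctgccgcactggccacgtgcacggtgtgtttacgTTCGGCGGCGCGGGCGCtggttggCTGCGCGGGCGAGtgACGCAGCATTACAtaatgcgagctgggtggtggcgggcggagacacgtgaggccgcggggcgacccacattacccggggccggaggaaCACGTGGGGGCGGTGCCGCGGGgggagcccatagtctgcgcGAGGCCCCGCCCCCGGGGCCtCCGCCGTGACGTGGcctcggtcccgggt
In the Nr1d1 intron the E-box stood at positions 42 to 47 and the D-box, as TTACATAA, at positions 114 to 121, counted from the 5′ end, both wholly in footprints. The Nr1d2 promoter peak held the same 8 letters TTACATAA at positions 111 to 118, with 5 of 8 in a footprint. It held 3 E-boxes, of which that at positions 191 to 196 was wholly in a footprint and those at positions 43 to 48 and 146 to 151 were in none. The combination was looked up after both sequences had been seen. Among the middle 200 bases of all 47143 distal regions 5.13% held an E-box, 1.33% a D-box and 24 regions (0.0509%) both. The merged Nr1d1 region is 400 bp wide, and its printed E-box lies outside those middle bases. These distal shares are therefore no like-for-like background for the printed Nr1d1 pair. Among the middle 280 bases of the 11507 open promoter peaks 11.1% held an E-box, 0.791% a D-box and 11 peaks (0.0956%) both. Both motifs were also counted in footprints inside a peak that had a footprint-free window of the same width, shifted by 40 bp, in that peak. There the E-box was more frequent than in the shifted windows (log2 ratio 0.74, 1.42 and 1.47 in replicates 1, 2 and 3), whereas the D-box was less frequent (-0.58, -0.87 and -0.69). A match of letters does not show which factor was bound.

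Rora, which encodes ROR alpha, an activator at the elements that REV-ERB represses, spans 734 kb (chr9:68653786-69388246, plus strand). Its promoter was open at 1 of 4 start-site groups, a coding one 636 kb from the first, with a signal of 2.09, 3.24 and 4.20 (percentiles 73.1, 83.0 and 85.3). The first annotated start site, also coding and in a CpG-rich window, had no peak in any replicate. Rora had 25 distal regions, the most of the family and more than 99.8% of all genes by rank, every one of them intronic. Most were weak. The strongest, 380.8 kb inside, had percentiles 77.6, 79.2 and 85.6. Because the gene is long its density was 3.31 per 100 kb, near the middle of all genes. The open promoter is printed because it is the only open start site of the member with the most distal regions.
Rora promoter, chr9:69289681-69289960, plus strand: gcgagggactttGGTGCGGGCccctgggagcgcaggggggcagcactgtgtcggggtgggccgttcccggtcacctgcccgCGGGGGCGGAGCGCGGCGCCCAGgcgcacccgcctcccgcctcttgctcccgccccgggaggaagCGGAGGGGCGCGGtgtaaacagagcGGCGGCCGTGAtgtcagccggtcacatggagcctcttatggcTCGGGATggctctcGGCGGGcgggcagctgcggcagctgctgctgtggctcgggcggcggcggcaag
Of its 4 GC boxes 1 was wholly in a footprint.

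The sterol sensors LXR beta and LXR alpha differed in rank. Nr1h2 (LXR beta, widely expressed) had percentiles 95.4, 98.5 and 98.4. Nr1h3 (LXR alpha, known from liver and macrophages) had 90, 91.2 and 90.1, and that peak lay at a non-coding start site that it shared with the promoter of Acp2, a lysosomal acid phosphatase gene. At the coding start-site group of Nr1h3, 7.68 kb further in, the percentiles were 24.8, 71.0 and 63.1. Without the shared peak the coding promoter of Nr1h3 was thus among the weaker ones.

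The 3 fatty acid receptors were ordered Ppard, Ppara and Pparg in every replicate, with no overlap. Ppard (PPAR delta, widely expressed) had percentiles 92.5, 97.5 and 97.7. Ppara (PPAR alpha, known for fatty acid oxidation in liver) had 70.2, 84.2 and 83.8. Pparg (PPAR gamma, the adipocyte regulator) had no peak in replicate 1 and lay at 9.2 and 13.5 in replicates 2 and 3. Ppard (chr17:28232700-28301474, plus strand) also had 10 distal regions, 9 of them in all 3 replicates, of which 3 lay in the neighbouring gene Def6. Rorb (ROR beta, mostly neural) was open in replicate 1 alone, at the percentile 0.64, the weakest promoter peak of the family.

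Among the steroid receptors Nr3c1, the glucocorticoid receptor, was the strongest, with a signal of 5.52, 13.7 and 14.8 (percentiles 92.1, 96.9 and 97.0). Of its 6 start-site groups 5 were open in all 3 replicates, the most of any member, and the strongest lay 28.1 kb inside the first. These are not 5 separate peaks. Groups 3, 4 and 5 had the same signal in replicate 1 (2.28), and groups 4 and 5 also in replicates 2 and 3 (7.31 and 6.19). It held 9, 38 and 23 promoter footprints, the highest mean of the family (23.3 ± 14.5, SD, n = 3), over a summed promoter window of 5034 bp. Nr3c2, the mineralocorticoid receptor, followed at percentiles 77.2, 84.4 and 86.6. Esr1, estrogen receptor alpha, was open at the first of 5 start-site groups at percentiles 39.0, 62.7 and 70.1. It lost its peak with 250 bp on each side. Esr1 had 10 distal regions, all intronic, 3 of them in all 3 replicates. Esr2, estrogen receptor beta, was open in replicates 2 and 3 alone, at 32.6 and 23.4, and Pgr, the progesterone receptor, in none. The order Nr3c1, Nr3c2, Esr1, Esr2 and Pgr was the same in every replicate, except that Esr2 and Pgr were equal in replicate 1.

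The retinoid, thyroid and vitamin D receptors were open with 1 exception, at a class median of 66.0, below the median of 87.8 over all open members. Rara (RAR alpha) led the class with a signal of 2.76, 7.63 and 8.08 (percentiles 79.6, 92.6 and 92.4). The value of replicate 1 came from a start-site group 32.6 kb inside and those of replicates 2 and 3 from one 11.9 kb inside. The latter had a signal of 2.58 (percentile 78.2) in replicate 1. The first start site of Rara was closed, and the 4 groups 9.88 to 32.6 kb inside were open in all 3 replicates. Those 9.88 and 10.5 kb inside had the same signal in replicate 1 (2.36). Rarg (RAR gamma) followed at percentiles 72.3, 69.7 and 81.4, again with a closed first start site. Its strongest peak in replicate 2 was not the one of replicates 1 and 3. With 250 bp on each side the mean percentile of Rarg was 66.0, against 74.5. Rarb (RAR beta), itself a target of retinoic acid, had no promoter peak in any replicate although its window was CpG-rich. Thra (thyroid hormone receptor alpha) lay at 51.5, 74.8 and 71.8, Vdr (vitamin D receptor) at 52.0, 66.0 and 59.2, and Thrb (thyroid hormone receptor beta) at 39.7, 46.4 and 55.7. Thrb had the lowest mean of the 25 open members (47.3 ± 8.04, SD, n = 3), and Rarg, Thra, Vdr and Thrb overlapped their neighbours in this order.

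Rara (chr11:98927818-98974942, plus strand) had 14 distal regions and the highest density of the family, 20.9 per 100 kb, above 99% of all genes by rank. The strongest lay in an intron 14.4 kb inside, with a signal of 8.36, 17.8 and 19.7 (percentiles 97.5, 98.3 and 98.5), above the promoter of Rara in every replicate. Of the 14 regions 8 were found in all 3 replicates, and 3 lay in neighbouring genes (2 in Cdc6, 1 in Gjd3). The peak of replicate 3, 300 bases long, is printed because the region had the highest mean percentile of the members' distal regions (98.1, against 97.9 for that of Nr4a3 2.2 kb upstream, which ranked higher in replicate 1).
Rara intron, chr11:98942161-98942460, plus strand: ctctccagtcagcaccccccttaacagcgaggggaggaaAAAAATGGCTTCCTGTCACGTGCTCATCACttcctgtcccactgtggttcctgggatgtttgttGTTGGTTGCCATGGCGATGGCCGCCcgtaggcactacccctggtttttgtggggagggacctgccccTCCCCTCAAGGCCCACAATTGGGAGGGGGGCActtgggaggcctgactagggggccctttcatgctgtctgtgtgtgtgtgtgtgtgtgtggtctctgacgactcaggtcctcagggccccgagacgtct
An E-box at positions 56 to 61 was wholly in a footprint, and a GC box on the opposite strand at positions 124 to 129 had 5 of 6 letters in one. The hexamer AGGTCA was not among these letters.

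Of the 10 orphan receptors Nr2c2 was described above, and 3 others were open in all 3 replicates. Nr6a1 (GCNF, a repressor known from germ cells and early embryos) had percentiles 86.6, 95.4 and 95.9. Nr2c1 (TR2, the partner of TR4) had 67.4, 80.2 and 81.5, and Nr2f6 (EAR2) had 41.1, 80 and 78.5. Nr2f6 is the orphan receptor known from lymphocytes as a brake on cytokine genes, and replicate 1 stood apart for it (mean 66.5 ± 22.0, SD, n = 3). Nr5a2 (LRH-1, of liver and early embryo) was open in replicate 3 alone, at the percentile 8.1. The other 5, Nr2e1 (TLX, neural stem cells), Nr2e3 (photoreceptors), Nr2f1 and Nr2f2 (COUP-TF I and II) and Nr5a1 (SF-1, adrenal and gonad), were closed in all 3.

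The xenobiotic and bile acid sensors, which are known from liver and gut, were closed throughout: Nr1i2 (PXR), Nr1i3 (CAR), Nr1h4 (FXR), Hnf4a and Hnf4g. A closed promoter did not mean a closed locus. Hnf4a, the hepatocyte factor, had 2 intronic regions in all 3 replicates, the stronger 28.3 kb inside at percentiles 77.2, 88.8 and 86.7. Nr2e3 had 4 distal regions, 10.6 per 100 kb, and Nr1h4 had 3. The regions counted for Nr1i2 and Nr1i3 lay in the neighbouring genes Gsk3b and Tomm40l. The deposited cut-rate intervals, which list stretches with a false discovery rate of up to 0.05, gave a more sensitive reading. Of the 14 members with no promoter peak, 13 had no such interval in the promoter in any replicate. Nr2f1 had 1 of 13 bp in replicate 3, with a false discovery rate of 2.60e-02, so 1 of 14 (7.14%) had any interval, against 3.36% of all protein-coding promoters with no peak.

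CpG content separated open from closed members in part. CpG-rich promoters, with an observed over expected CpG ratio of at least 0.6 in 1 kb, were open in all 3 replicates in 23 of 34 members (67.6%), against 82.0% of CpG-rich protein-coding promoters. With an intermediate ratio 2 of 8 members were open (25%), Nr1d1 and Nr1h3, against 38.8% of protein-coding promoters. With a ratio under 0.3 neither of 2 members, Nr1i2 and Nr1i3, was open, against 5%. The 7 CpG-rich members with no peak in any replicate were Esrrb, Esrrg, Nr2e1, Nr2f1, Nr2f2, Nr5a1 and Rarb. Within each class the members' share was thus below that of all genes, while over all classes it was above, with 34 of 44 members CpG-rich.

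**Figure D2:**
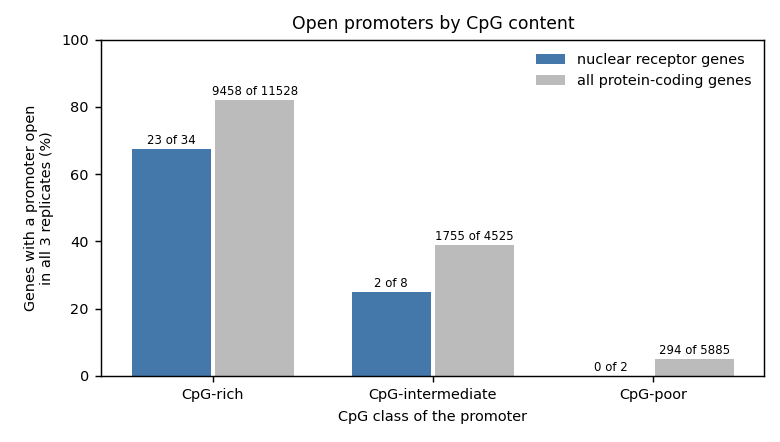
Share of genes with a promoter open in all 3 replicates (y axis, percent) by CpG class of the promoter (x axis), for the 44 nuclear receptor genes (blue, left of each pair) and all protein-coding genes (grey), with counts above the bars. In the CpG-rich class 23 of 34 members were open, against 9458 of 11528 protein-coding genes.

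All 25 open members have several separate groups of start sites, against 72.0% of open protein-coding genes. The members had 98 groups in all, of which 44 were open in all 3 replicates. Windows of neighbouring groups can overlap, and a peak that touched several was counted for each. Among groups open in all 3 replicates, the strongest was not the first annotated one in 11 of 25 members (44%), against 17.9% of open protein-coding genes with several groups. In 6 members (24%; Nr3c1, Nr4a1, Nr4a2, Rara, Rarg and Rora) it lay over 5 kb from the first, against 9.67%. Rxra is not among them, since its stronger group 63.8 kb inside was closed in replicate 1. The first group was not open in all 3 replicates in 6 members (24%), against 13%: Rora, Rara, Rarg, Vdr (open 2.32 kb inside), Thra (1.17 kb) and Nr6a1 (1.41 kb).

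**Figure D3:**
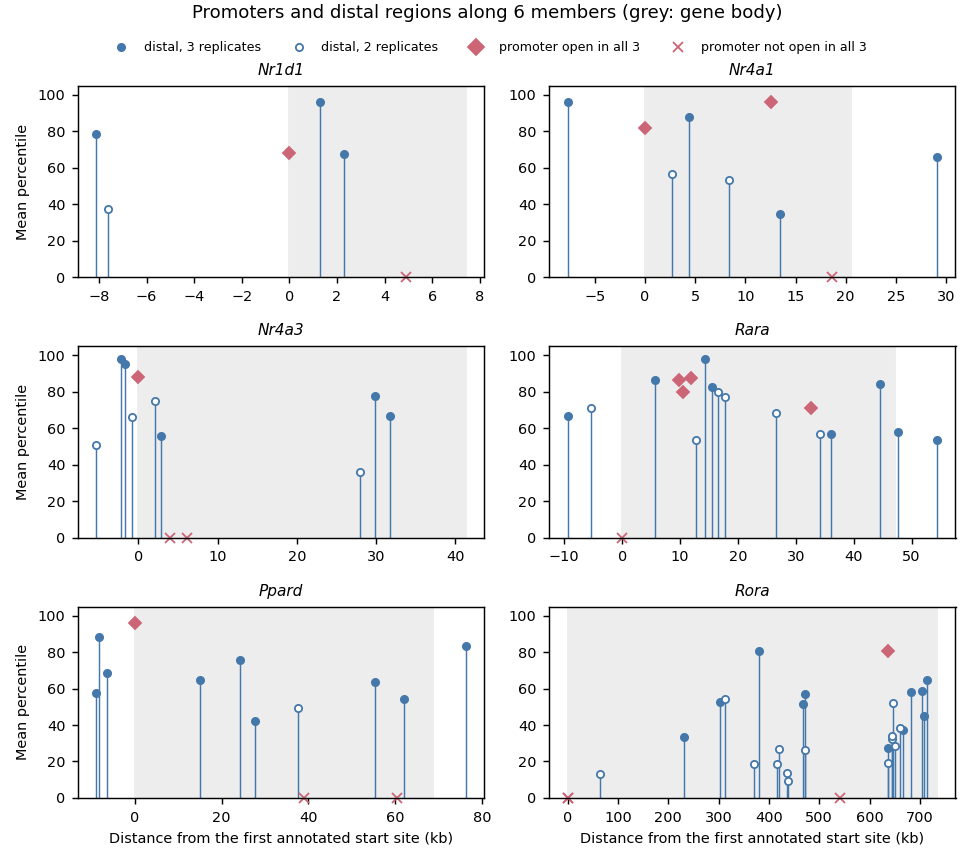
Mean percentile over replicates (y axis) of promoters (red diamonds, crosses at 0 where not open in all 3) and distal regions (blue, filled where found in 3 replicates, open where found in 2) by distance from the first annotated start site in kb (x axis) for 6 members. The highest blue points of Nr1d1, Nr4a3 and Rara stand above every promoter of the same gene.

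Over the family 147 distal regions were counted, 76 of them in all 3 replicates, with 103 in introns, 4 in exons, 18 upstream and 22 downstream. The 2 regions that Thra and Nr1d1 share were counted for both genes, and 15 lay in another gene. The median was 1.5 per member, against 1 over all protein-coding genes. At least 4 were found in 13 of 44 members (29.5%), against 17.3% of all protein-coding genes, and none in 12 members (27.3%), against 38.8%. A longer gene has more room for regions, so density was computed as well. Its median was 2.33 per 100 kb in members and 2.22 in all genes, while 8 members (18.2%) reached 10 per 100 kb, against 8.93% of all genes. These were Rara, Nr4a1, Nr4a3, Nr1d1, Thra, Rarg, Ppard and Nr2e3. A gene's number of distal regions did not follow the strength of its promoter. Across the 25 open members Spearman's rho was -0.26 between mean percentile and number, against -0.04 over the 11507 open protein-coding genes. These are descriptions over genes that are not replicates. The genes with the strongest promoters, Esrra and Rxrb, had 0 distal regions each and Nr2c2 had 1. Esrra and Rxrb are short, at 10.8 and 6.59 kb, whereas Nr2c2 spans 82.9 kb.

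Of 18 open members that also had a distal region in all 3 replicates, 9 (50%) had one with a higher mean percentile than their promoter, against 24.7% of such protein-coding genes. They were Nr1d1, Thra, Nr4a1, Nr4a3, Rara, Rarg, Rora, Rxra and Vdr. The gap was wide in Thra and Nr1d1 (96.3 for the region they share, against 66.0 and 68.3 for their promoters) and in Vdr (87.4 against 59.1). In Nr4a1 (96.2 against 96), Rora (80.8 against 80.5) and Rxra (75.9 against 49.8, promoter SD 30.7) it was within the spread between replicates.

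**Figure D4:**
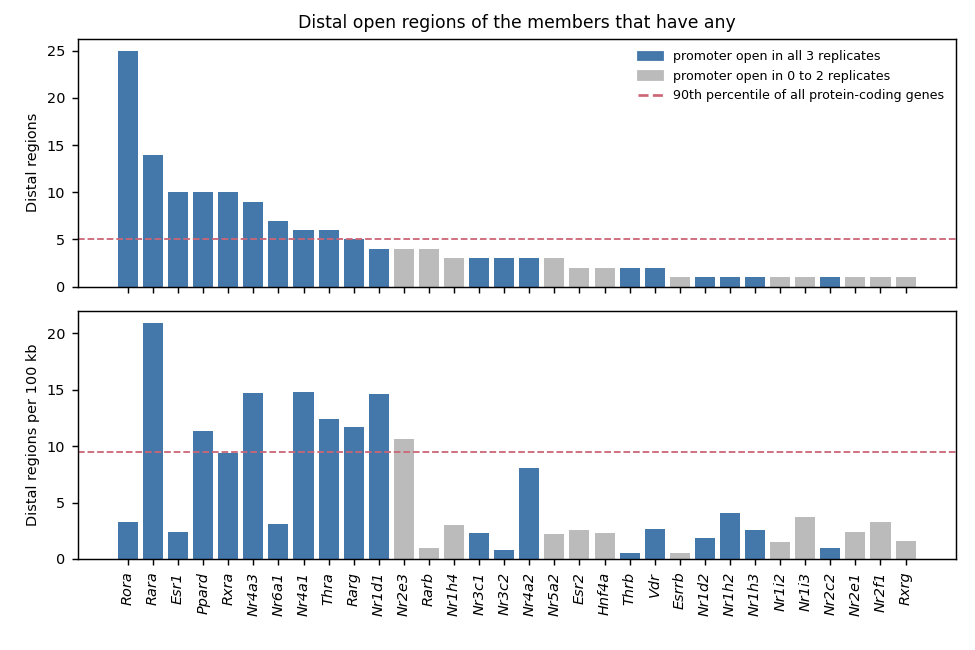
Number of distal open regions found in at least 2 replicates (upper y axis) and the same per 100 kb of gene and flanks (lower y axis) for the 32 members that have any (x axis), blue where the promoter was open in all 3 replicates and grey where it was not. Rora is highest by number at 25 and Rara by density at 20.9, and the dashed line is the 90th percentile of all protein-coding genes.

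A promoter footprint was found in all 3 replicates in 23 of 44 members (52.3%), against 49.8% of all protein-coding genes. The 2 members open in all 3 replicates without one in replicate 1 were Rxra and Esr1. Among the 25 open members, 19 (76%) had a GC box in a promoter footprint, against 61.1% of open protein-coding promoters, and 10 (40%) had TGACG, against 22.3%. These 10 were Nr1d2, Nr1h2, Nr2c2, Nr3c1, Nr4a1, Nr4a2, Nr4a3, Nr6a1, Rara and Rxrb. Open members also had more promoter footprints (medians 6, 12 and 10 in replicates 1, 2 and 3, against 5, 8 and 7). The part of this in the motif shares was not tested. In windows of 300 bases at start sites of open and closed members 44.3% held a GC box, against 47.8% of all windows. For TGACG these shares were 27.9% and 24.2%. ETS motifs were in promoter footprints of 2 members (8%), Nr1h2 and Rxrb, against 16%.

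The receptors' own elements were searched in the same way. The hexamer AGGTCA was in a promoter footprint of 0 of 25 open members, against 2.69% of open protein-coding promoters. In the 300-base RefSeq windows (mm10) from 250 bases before to 50 after a start site, 61 windows of 40 matched members, 11 (18%) held it, against 14.4% of 20150 windows. The longer NR4A element AAAGGTCA was in 2 member windows, of Rxra and Rxrg, and the estrogen-related receptor element TCAAGGTCA in 0, against 1.32% and 0.337% of all windows. The ROR element, the repeats with 1, 4 or 5 bases between hexamers and the estrogen and glucocorticoid inverted repeats were in no member window, where they were in at most 0.452% of all windows. The absence of these letters says nothing about binding elsewhere.

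Replicates ranked the members alike. Spearman's rho across the 25 open members was 0.96 between replicates 1 and 2, 0.97 between 1 and 3, and 0.99 between 2 and 3, against 0.95, 0.96 and 0.99 over all open genes. After each library was centred on the median log2 signal of all promoters open in all 3, the centred log2 signal was higher in replicate 2 than in replicate 3 in 7 of 25 members (28.0%), against 50.4% of open protein-coding promoters. The difference was -0.07 at the median of the members. It was lowest in Rarg at -0.94, followed by Nr4a2 at -0.68, Esr1 at -0.50 and Thrb at -0.45. The Rarg value compares different peaks, chr15:102246361-102246640 in replicate 2 and chr15:102246961-102247700 in replicate 3, and is not a change at 1 element. Of the 25 members 6 (24%) were lower in replicate 2 by more than 0.3, against 8.85% of open protein-coding promoters, and 0 were higher by that much, against 8.20%. Over the same libraries 0 of 8 natural killer markers (median -0.98) and 6 of 7 B cell markers (median 1.07) were higher in replicate 2, and their part in the members' differences was not tested.

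Other genes of the receptor pathways are given beside the 52.5% of all protein-coding genes open in all 3 replicates. Of 20 coactivator genes 18 were open in all 3 replicates, led by Smarca4, Ncoa4, Prmt1 and Carm1 (mean percentiles 99.3, 99.3, 99.1 and 99.1). Of 16 corepressor genes 15 were open, led by Rcor1, Sin3a, Hdac1 and Kdm1a, and Hr, which is known from skin, was closed. All 12 chaperones and cochaperones of steroid receptors were open, with Hspa8 at a mean percentile of 99.9. Of 22 enzymes and carriers of ligands 11 (50%) were open, near the share of all genes, with a median percentile of 73.4 against 89.4 over all open genes. Among these the retinaldehyde reductase gene Dhrs3 led at 81.5, and the retinoic acid carriers Crabp1 and Crabp2 were closed.

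Genes known as targets of these receptors were mostly open as well, apart from those of the retinoic acid receptors. Open in all 3 replicates were 11 of 12 glucocorticoid receptor targets (Per1 at a mean percentile of 99.4 and Fkbp5 at 97.7), 10 of 12 LXR targets (Lpcat3 at 99.4), 8 of 12 REV-ERB and ROR targets (Per2 at 99.8 and Arntl at 96.4), 10 of 14 PPAR targets (Hadha at 96.7), and 11 of 12 ERR targets, a list that includes Esrra itself (Idh3a at 98.7). Of 12 retinoic acid receptor targets, a list that includes Rarb, 5 were open (Itga4 at 90.8), and Cyp26a1 and Crabp2 were closed. All these counts stand against 52.5% of all protein-coding genes, and they do not single out a receptor. Neither these lists nor those of coregulators, chaperones and ligand enzymes were split by CpG class. Among CpG-rich promoters 82.0% of all protein-coding genes were open.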

How the data were processed

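DNase-seq was analysed in 3 libraries of 1 group. For each the authors deposited 2 peak lists, footprints and cut-rate intervals on mm10, called per library from filtered alignments, per the deposited descriptions. No source used here names the aligner or the callers. The larger peak list was used, in which the deposited signal has an unstated scale, so it was ranked within its library. The deposited footprint score is a constant 0.01 and was not used. The deposited cut-rate intervals carry a q-value (false discovery rate) of up to 0.05. Read depth is unknown, so no counting intervals are given.

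Genes and 93513 start sites came from GENCODE M21. Peaks were assigned to promoters by an overlap of 1 bp. Distal regions were peaks merged over replicates, whose middle lay in the gene or up to 10 kb beyond either end. Start sites up to 500 bp apart were joined into groups. CpG classes took the highest ratio among the gene's start sites. Of 24 motifs, searched on both strands, a footprint match needed at least 50% of the letters inside. Peak assignment was tested on simulated data. No test between groups was possible with 1 group, so shares stand beside those of all protein-coding genes. Members, gene lists and motifs were chosen with earlier results of these data known. All 44 members are named. Of other lists the named genes are among the 4 with the highest mean percentile and the first 2 closed ones by name. The markers Cd79a and Csf1r are named outside this rule. Printed sequences are of 8 members: the 3 strongest promoters, the 2 with the most distal regions, and members whose motifs the text names. The work used Python 3.11.15, numpy 2.4.6, pandas 2.3.3, pysam 0.24.0 and matplotlib 3.10.9. Alternatives were other window sizes, coding start sites only, the stricter peak list, the stronger 50% of peaks, other flanks and leaving out each replicate.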

Additional observations from a re-analysis of the deposited data

How the results depend on the processing

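No paired analysis was possible because the samples form 1 group. The count of members open in all 3 replicates ran between 21 and 26 over the 6 other definitions of an open promoter, against 25, and between 25 and 27 without 1 replicate. Of these definitions 4 lost Esr1, 2 lost Rxra, and 1 each lost Nr1d1, Nr2f6 and Thrb, while a wider window added Esr2. The median percentile of open members moved to 76.5 with the 50% of peaks of higher signal, against 82.7 for all open genes, and to 49.0 when ranked among open protein-coding promoters alone, which by construction centres all genes near the middle. It ran between 85.5 and 86.0 without 1 replicate. The median of distal regions moved to 4.5 with 50 kb on each side, against 4 for all genes, and ran between 1 and 1.5 without 1 replicate. Members with a footprint in all replicates ran between 23 and 26 without 1 replicate. Of 192 single-member percentiles under these alternatives 154 stayed within 1 SD of the replicates. Leaving out 1 of 3 replicates cannot move a mean by 1 SD, so the 25 of 25 for each replicate left out were fixed in advance. With the stricter peak list 9 of 22 stayed, and with the stronger 50% of peaks, ranked among fewer peaks, 0 of 21. Members that lost a peak were not counted. Replicate 1 has fewer than 50% as many peaks as replicates 2 and 3, so a region missing there may lie below its detection, and the depth behind each peak is unknown.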

Other observations

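Receptor elements were also counted in footprints inside a peak, beside windows of the same width shifted by 40 bp inside that peak to footprint-free bases. Footprints with no such window were left out, which kept 76133, 159434 and 152030 of 101990, 239483 and 222990 in replicates 1, 2 and 3. The hexamer AGGTCA, the core of most non-steroid receptor elements, was in 0.515%, 0.773% and 0.820% of footprints in replicates 1, 2 and 3, against 0.741%, 0.882% and 0.922% of moved windows (log2 ratio -0.29 ± 0.20, SD, n = 3). The inverted repeat of the glucocorticoid receptor class was in 10, 26 and 18 footprints, with a log2 ratio of -0.94 ± 0.18. Both were lower in footprints than in moved windows in 3 of 3 replicates. The full CRE palindrome TGACGTCA had a log2 ratio of 4.34 ± 0.33 and the GC box 1.85 ± 0.04 in the same libraries. Other receptor elements went the other way on few footprints. Direct repeats with 1 base between hexamers were in 1, 11 and 9 footprints, with log2 ratios of 2.99 and 2.71 in replicates 2 and 3, and those with 4 bases between were in 2, 6 and 2, with 3.12 and 1.54. In replicate 1 no moved window held either. The NR4A element AAAGGTCA had log2 ratios of -0.17, 0.42 and 0.31. Repeats with 5 bases between were in 0, 3 and 6 footprints (1.12 and 3.13 in replicates 2 and 3). The estrogen-related receptor element had -0.78, -0.05 and -0.06 and the ROR element -3.32, -0.10 and -0.60, the last with 1, 22 and 19 footprints.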
